A study of Drosophila melanogaster with 9 samples.

Results

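The JAK/STAT pathway carries a signal from a secreted ligand to the nucleus in a short chain. In Drosophila, ligands of the Unpaired family bind the receptor Domeless, the kinase Hopscotch bound to it is activated, and the transcription factor Stat92E is phosphorylated, enters the nucleus and switches on targets that include the feedback inhibitor Socs36E. In the eye-antennal imaginal disc, from which the compound eye, the antenna and most of the head cuticle of the adult develop, the pathway is known for promoting growth of the young eye field, with a source of ligand at the posterior margin of the disc. The genes described here are 8 members of this chain: the ligand genes upd1, upd2 and upd3, the receptor gene dome, the kinase gene hop, Stat92E, Socs36E, and et (eye transformer), which encodes a short receptor related to Domeless that dampens the pathway. They were picked by their FlyBase gene identifiers, and all 8 were found among the 13676 genes of the count table.

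RNA was sequenced from whole eye-antennal discs of untreated wild-type OregonR larvae at 3 stages after egg laying (AEL), with 3 libraries a stage, called replicates A, B and C. L2 and L3 being larval instars, the stages were late L2 (72h AEL, both sexes, 120 to 130 discs a sample), mid L3 (96h AEL, females, 80 to 90 discs) and late L3 (120h AEL, females, 40 to 50 discs). Sex therefore changed with stage from 72h to 96h, and the labels mark the 120h libraries as a reanalysis of samples deposited earlier. From 72h to 96h stage and sex cannot be told apart, and from 96h to 120h stage and this origin cannot. From 72h to 120h stage, sex and this origin cannot be told apart. Library totals ran from 17675472 to 37305763 counts. Replicates A and B of 72h AEL differed by no more than sampling noise (chi-square per gene of 1.02, against 36.2 to 488 in the other replicate pairs) and were counted as 1 sample, which left 8 independent samples, 2 at 72h and 3 at each later stage. Levels are given as CPM, counts scaled to library size and TMM factors. Levels of the members are compared with each other only as CPM per kb of coding sequence.

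The disc markers ey, toy, so, eya, dac, hth, Dll and al were all expressed, with a summed level of 599 to 630 CPM at 72h, 1484 to 2036 CPM at 96h and 1284 to 1393 CPM at 120h. The even sum at 72h hid differences in single markers. The level of al was 36.5, 35.6 and 2.73 CPM in 72h A, B and C. Of the other markers, ey and eya were also lower in 72h C, and toy, so, dac, hth and Dll were higher there. Other larval tissues left marker RNA in the libraries as well. Summed muscle markers ran from 142 CPM in 120h B to 13470 CPM in 72h C, and summed hemocyte markers ranged from 71.4 CPM in 96h A to 1391 CPM in 72h C. Counts also trended with coding length: over 9076 genes, Spearman's rho between coding length and the level of a library relative to the others ran from -0.48 in 72h A and B to 0.57 in 96h A, with 0.03 in 96h C and 0.06 in 120h B. In whole discs, fewer cells of a type and less RNA per cell cannot be told apart.

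Of the 8 genes, 6 lie on the X chromosome, and the 3 ligand genes lie close together there. On the BDGP6 assembly upd2 spans X:18240654-18243284 on the minus strand, upd3 X:18277233-18284596 on the plus strand and upd1 X:18305354-18309291 on the minus strand, with gaps of 33.9 kb (3 other genes) and 20.8 kb (1 other gene) between them. The receptor gene dome (X:19676061-19683518) and et (X:19672312-19675891) are direct neighbours on the minus strand, 169 bp apart. The kinase gene hop is at X:11360930-11368098, Stat92E at 3R:20535323-20552311 and Socs36E at 2L:18138675-18152417, all on the minus strand. No coding sequence of these genes overlaps that of another gene. The reads were counted on coding sequences of an earlier annotation, so these positions identify the genes and were not used in counting. Coding lengths ran from 1113 bp in upd2 to 3849 bp in dome.

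From 72h to 96h AEL hop rose 2.16-fold, and from 96h to 120h AEL upd1 fell to 0.222 and upd3 to 0.0780 of its former mean level. The receptor, the transcription factor and the feedback inhibitor had higher mean levels at 96h than at either other stage, but none of these 3 passed the test in any comparison. Of the 7 members tested from 72h to 96h, 1 was called higher and none lower by edgeR's quasi-likelihood test at a Benjamini-Hochberg adjusted p under 0.05, while 4 had an unadjusted p under 0.05 and DESeq2 called 4. Over all 8946 genes tested, 42.8% were called, 20.3% higher and 22.5% lower, the median log2 fold change being 0.21 on the X and -0.05 on the autosomes. Without 96h B 641 genes were called, and each gene named below as called from 72h to 96h lost its call then. Between 96h and 120h 2 of 7 were called, both lower, against 14.3% of 8117 genes called, 8.01% higher and 6.28% lower. Between 72h and 120h 1 of 6 was called higher and 2 lower, against 52.6% of 9104 genes called, 23.6% higher and 29% lower. The libraries of the stages compared did not overlap for 4 tested members from 72h to 96h, for 2 from 96h to 120h and for 3 from 72h to 120h, where 72%, 33.1% and 74.4% of all tested genes did not overlap. The median log2 fold change of the members tested was 0.89, -0.58 and 0.37 in these 3 comparisons, and that of all genes was -0.01, -0.03 and -0.02.

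**Figure D1:**
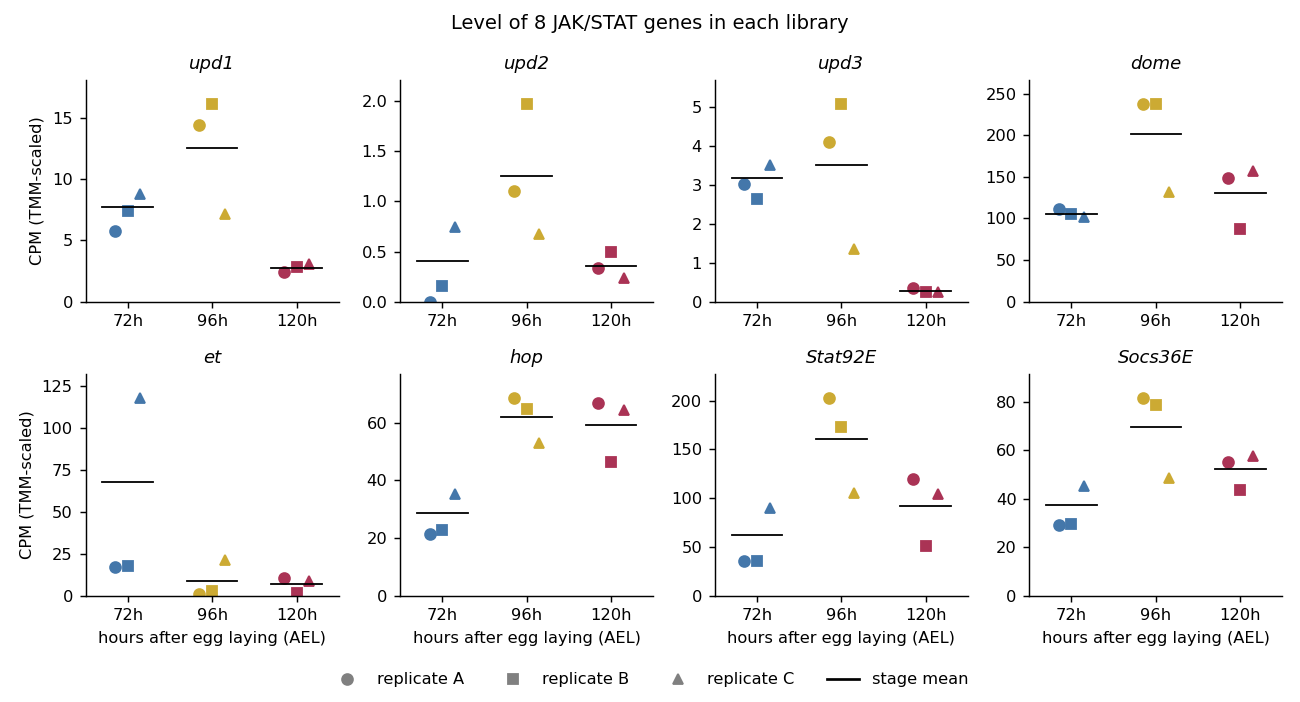
Level of each of the 8 genes in the 9 libraries, in TMM-scaled CPM on linear axes from 0, by stage (hours AEL). Symbols are replicates A (circle), B (square) and C (triangle), and bars are stage means with 72h A and B counted as 1 sample. The 120h libraries hold the lowest levels of upd1 and upd3, 96h C lies below 96h A and B for 7 of the genes, and et is highest in 72h C at 118 CPM.

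The ligand upd1 is the one known for eye growth in the early disc. Its level was 5.76, 7.43 and 8.80 CPM in 72h A, B and C, 14.4, 16.1 and 7.19 CPM at 96h, and 2.41, 2.87 and 3.08 CPM at 120h. All libraries at 120h lay below all earlier ones, while 96h C lay within the range of 72h. From 96h to 120h upd1 fell by 2.14 on the log2 scale (SE 0.35, edgeR adjusted p = 0.0096), a 4.51-fold lower mean level of 2.79 ± 0.345 CPM (SD, n = 3) against 12.6 ± 4.74 CPM (SD, n = 3). The call held when any 1 library was left out, with adjusted p between 0.00248 and 0.0483. The 120h libraries alone would not have carried upd1 past the filter on low counts, but without any filter the adjusted p was 0.0071. The change from 72h to 96h was 0.69 on the log2 scale (SE 0.42, edgeR adjusted p = 0.219). It was 1.01 (adjusted p = 0.0401) without 96h C, the only alternative that passed the threshold. With an offset for coding length it was 1.25 (adjusted p = 0.0667), and with library sizes in place of TMM 1.11 (adjusted p = 0.0871). The log2 fold change from 72h to 120h was -1.50 (SE 0.31, adjusted p = 0.0133). That call was lost with an offset for coding length (-0.90, adjusted p = 0.0657), with library sizes in place of TMM (-0.93, adjusted p = 0.073), without 120h A (adjusted p = 0.0641) and without 120h C (adjusted p = 0.0605).

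The ligand upd3, best known as a cytokine released by blood cells and damaged epithelia, went lower still at the last stage. Its level was 3.03, 2.63 and 3.51 CPM at 72h, 4.11, 5.07 and 1.36 CPM at 96h, and 0.340, 0.247 and 0.235 CPM at 120h. The 120h values rest on 12, 5 and 7 counts, with exact Poisson 95% intervals of 0.176 to 0.594, 0.0803 to 0.577 and 0.0943 to 0.483 CPM that cover counting error only. All of these intervals lie under the lowest earlier library, 96h C, whose 34 counts gave an interval of 0.941 to 1.90 CPM. From 96h to 120h upd3 fell by 3.62 on the log2 scale (SE 0.67, edgeR adjusted p = 0.015), and mean levels differed 12.8-fold. As with upd1, the gene passed the filter only through the 96h libraries. Without a filter the log2 fold change was -3.61 (adjusted p = 0.00625). The call was lost without 120h A (adjusted p = 0.0553) or 120h C (adjusted p = 0.0747), and without 96h B or 96h C upd3 was not tested. From 72h to 96h the log2 fold change was 0.14 (adjusted p = 0.867). Between 72h and 120h upd3 did not pass the filter, and without it the log2 fold change was -3.53 (adjusted p = 0.00179).

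The remaining ligand, upd2, best known as a fat body hormone of the fed state, had the lowest mean level per kb of the ligand genes at 72h and 96h, on few counts. Counts were 0, 4 and 18 at 72h, 45, 59 and 17 at 96h, and 12, 10 and 7 at 120h, or at most 1.97 CPM. The count of 0 in 72h A allows a level of up to 0.130 CPM, the value of 3 counts there. The 72h and 96h libraries overlapped, and those of 96h all lay above those of 120h (lowest 0.679 against highest 0.495 CPM). No comparison tested upd2 after the filter. Without it the log2 fold change was 1.66 from 72h to 96h (adjusted p = 0.262) and -1.80 from 96h to 120h (adjusted p = 0.0801).

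Taken per kb, the 3 ligand genes summed to 7.15, 8.30 and 10.7 CPM per kb in 72h A, B and C, 16.0, 18.96 and 7.53 at 96h, and 2.53, 2.96 and 2.89 at 120h. Every 120h library lay below every earlier one. The share held by upd1 was 64.9 to 72.1% at 72h, 68.5 to 76.9% at 96h and 76.8 to 86.0% at 120h, and the share held by upd3 ran from 26.3 to 35.1% at 72h, 14.96 to 22.2% at 96h and 6.74 to 11.2% at 120h. Within the ligand genes upd1 was thus the largest part in all 9 libraries, and upd3 held less at 120h than in any earlier library.

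**Figure D2:**
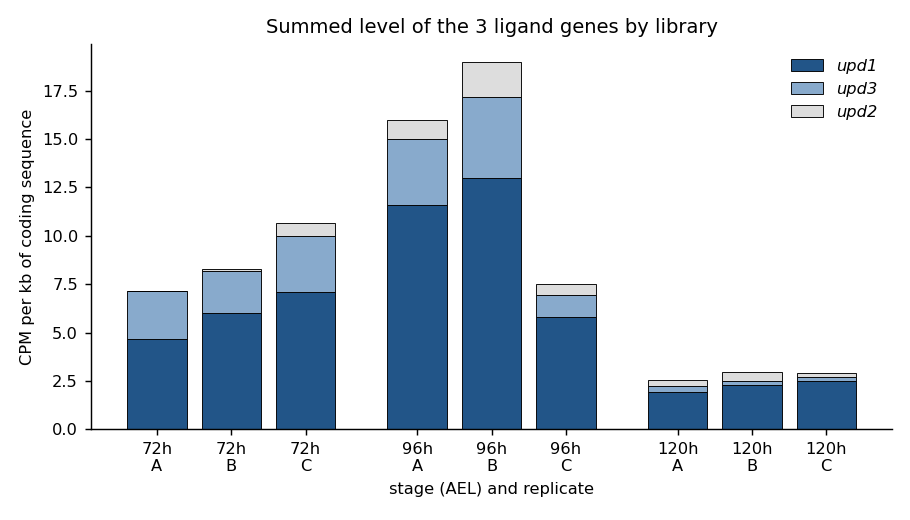
Stacked level of upd1 (dark), upd3 (mid) and upd2 (light) in CPM per kb of coding sequence, for each library of each stage (hours AEL and replicate). The sum is 2.53 to 2.96 at 120h, below all 6 earlier libraries (7.15 to 18.96), and 96h C at 7.53 stands below 96h A and B.

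The receptor gene dome was the most even member across the 72h libraries, at 111, 105 and 102 CPM. It stood at 237, 237 and 131 CPM at 96h, and at 148, 87.1 and 157 CPM at 120h. All 96h libraries lay above all 72h libraries, and 120h overlapped both. The log2 fold change from 72h to 96h was 0.93 (SE 0.31, edgeR adjusted p = 0.0623), and DESeq2 gave adjusted p = 0.0129. With an offset for coding length it was 0.22 (adjusted p = 0.465). The gene has the longest coding sequence of the members, and the trend with coding length differed between libraries as given above. The part of coding length in this change was not tested. Between 96h and 120h the log2 fold change was -0.58 (adjusted p = 0.313). Between 72h and 120h it was 0.28 (adjusted p = 0.455), and -0.37 with the length offset.

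Set against the ligand sum per kb, dome was 4.03, 3.30 and 2.48 times as high in 72h A, B and C, 3.85, 3.25 and 4.53 times at 96h, and 15.3, 7.65 and 14.1 times at 120h. The 120h libraries lay above all others in this ratio, and 72h and 96h overlapped. The ratio sets the longest member against short genes, and scaling per kb leaves the trend with coding length in place. That trend (Spearman's rho) was 0.46, 0.06 and 0.38 in 120h A, B and C, and 0.57 in 96h A, where the ratio was 3.85. Its part in the ratio was not tested. Of the genes in this ratio, upd1 and upd3 were called between 96h and 120h and dome was not.

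The kinase gene hop, the only JAK of the fly, was measured at 21.5, 22.8 and 35.4 CPM at 72h, 68.5, 64.8 and 53.1 CPM at 96h, and 67.0, 46.2 and 64.5 CPM at 120h. Every library at 96h and 120h lay above every library at 72h, and the later stages overlapped. The level of hop rose by 1.10 on the log2 scale from 72h to 96h (SE 0.25, edgeR adjusted p = 0.0259). The rise was 0.51 with the length offset, still past the threshold (adjusted p = 0.0251), while the call was lost without 96h A (adjusted p = 0.0677) or without 96h B (adjusted p = 0.0976). The log2 fold change from 96h to 120h was -0.03 (SE 0.20, adjusted p = 0.943). At 120h hop was higher than at 72h by 1.02 (SE 0.27, adjusted p = 0.0276). Leaving out 120h A (adjusted p = 0.0903) or 120h C (adjusted p = 0.0963) ended this call, as did the length offset with no filter (adjusted p = 0.107).

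Stat92E, the single STAT transcription factor of the fly, varied widely between libraries of a stage. It was at 35.7, 35.1 and 89.9 CPM at 72h, 202, 173 and 106 CPM at 96h, and 119, 50.9 and 104 CPM at 120h. Replicate C of 72h was 2.54 times the mean of A and B, yet the 72h and 96h libraries did not overlap. The log2 fold change from 72h to 96h was 1.35 (SE 0.50, edgeR adjusted p = 0.0756, DESeq2 adjusted p = 0.0182). It reached 2.16 (adjusted p = 0.0294) without 72h C. Between 96h and 120h it was -0.76 (adjusted p = 0.262), with overlapping libraries.

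Socs36E, the feedback inhibitor often used as a readout of pathway activity, shared with Stat92E a high 72h C and a low 96h C. Its level was 29.2, 29.5 and 45.2 CPM at 72h, 81.4, 78.5 and 48.7 CPM at 96h, and 55.0, 43.7 and 57.8 CPM at 120h. The lowest 96h library lay just above the highest at 72h, and 120h overlapped both. From 72h to 96h the log2 fold change was 0.89 (SE 0.31, edgeR adjusted p = 0.0689, DESeq2 adjusted p = 0.0306), and it was 0.77 with the length offset (adjusted p = 0.0431). Without 96h C it was 1.13 (adjusted p = 0.0302). Between 96h and 120h it was -0.37 (adjusted p = 0.36). The level of Socs36E thus did not pass the test over the interval in which upd1 and upd3 fell. That difference between the genes was not itself tested.

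**Figure D3:**
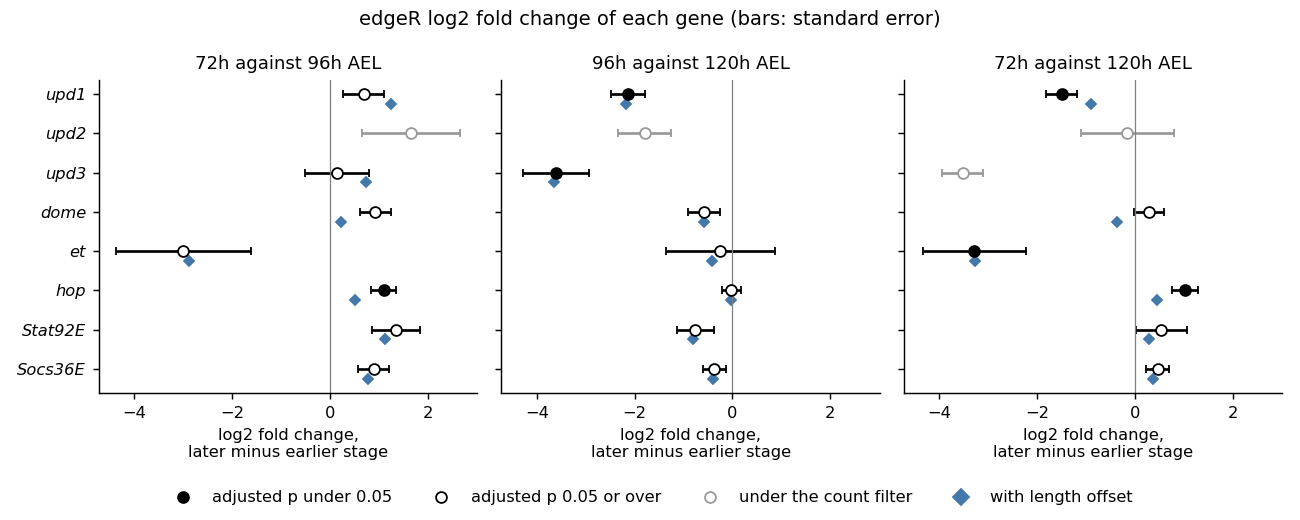
Log2 fold change of each gene between stages from edgeR (x axis, later minus earlier stage; circles with standard errors), filled where the adjusted p was under 0.05 and grey where the gene was under the count filter. Blue diamonds give the value with an offset for coding length. Between 72h and 96h it moves dome from 0.93 to 0.22, hop from 1.10 to 0.51, upd1 from 0.69 to 1.25 and upd3 from 0.14 to 0.74. Between 96h and 120h it moves upd1 and upd3 little.

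The short receptor et, also called latran, is known for limiting JAK/STAT signalling in blood cell progenitors of the lymph gland. It was at 17.3, 17.5 and 118 CPM at 72h, 1.28, 2.94 and 21.3 CPM at 96h, and 10.5, 1.38 and 8.51 CPM at 120h. Replicate C was by far the highest library at 72h and at 96h, and 120h B the lowest at 120h. The highest sample of a stage was 6.75, 16.6 and 7.59 times the lowest at 72h, 96h and 120h, with the mean of A and B as 1 sample at 72h. Only 65 of 9076 genes, 0.716%, exceeded 6.75 at all 3 stages, against 79.5% that exceeded the smallest spread of dome, 1.06. From 72h to 120h et fell by 3.29 on the log2 scale (SE 1.05, edgeR adjusted p = 0.0464), and without 72h C the value was -1.42 (adjusted p = 0.277). The call was lost in 8 of 16 alternatives. From 72h to 96h it was -3.00 (SE 1.38, adjusted p = 0.127). Without 72h C this was -1.07, and without 96h C it was -4.97 (adjusted p = 0.0363). From 96h to 120h the log2 fold change of -0.25 (SE 1.12, adjusted p = 0.906) changed sign when 96h C or 120h B was left out, to 1.75 and 0.24.

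Within each stage, the libraries high in et were those high in summed blood cell and fat body markers. The summed CPM of the hemocyte markers Hml, NimC1, eater, He, Pxn and srp was 329, 334 and 1391 at 72h, 71.4, 87.6 and 345 at 96h, and 1120, 193 and 996 at 120h, and none of the 6 was at 0 in any library. Ranked within each stage, the samples had the same order for et as for this sum, and the same order as for the summed fat body markers (2556, 2557 and 3135 CPM at 72h, 1156, 1375 and 4499 at 96h, 4043, 114 and 3662 at 120h). The order at 72h rests on 2 samples. Single markers departed from it. Pxn (54.3 against 31.05 CPM) and the fat body marker Lsp2 (17.5 against 10.95 CPM) were higher in 96h A than in 96h B. The fat body marker Fbp1 was lowest at 72h in C, at 1.115 CPM. Summed muscle markers had the order of et at 72h and 120h and not at 96h, where they were 5980, 2593 and 1228 CPM. Across stages the relation differed. In plain CPM, as a percentage of the hemocyte sum that serves only to follow this 1 ratio across libraries, et was 5.26, 5.24 and 8.45% at 72h, 1.79, 3.35 and 6.16% at 96h, and 0.938, 0.716 and 0.854% at 120h, so that all 120h libraries lay below all earlier ones. The part of these cells in the level of et was not tested. The other 7 members had their lowest 96h level in 96h C. That library had the highest et of its stage and the highest sums of hemocyte, fat body, photoreceptor and salivary gland markers. Its sums of disc (1484 CPM), muscle (1228 CPM), glia and trachea markers were the lowest. Its trend with coding length was 0.03, against 0.57 and 0.42 in 96h A and B. The part of these differences in the low levels was not tested.

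**Figure D4:**
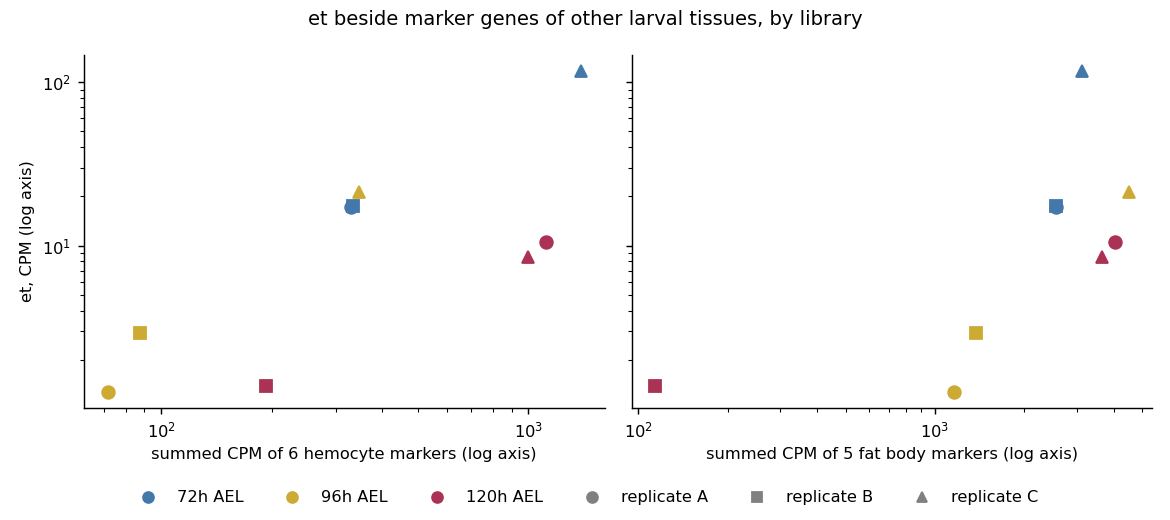
Level of et in CPM (log y axis) against the summed CPM of 6 hemocyte markers (left) and 5 fat body markers (right; log x axes), 1 point a library, coloured by stage with a symbol for each replicate. Within each stage et has the order of both sums, and at a like hemocyte sum the 120h libraries lie lower than 72h C (8.51 and 10.5 against 118 CPM).

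Between the neighbours dome and et the balance differed from library to library. Per kb, dome was 3.22, 3.03 and 0.436 times the level of et in 72h A, B and C, 93.3, 40.6 and 3.11 times at 96h, and 7.11, 31.7 and 9.28 times at 120h. In 72h C alone et exceeded the receptor. The libraries of 96h and 120h overlapped in this ratio.

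Ordered by mean level per kb at 96h, Stat92E came first (65.3 ± 20.2 CPM per kb, SD, n = 3), then dome (52.4 ± 15.9), Socs36E (31.4 ± 8.19), hop (17.6 ± 2.27), upd1 (10.1 ± 3.82), et (4.38 ± 5.72), upd3 (2.91 ± 1.60) and upd2 (1.13 ± 0.591). The ranges of Stat92E and dome overlapped, as did those of dome and Socs36E, of upd1 and et, of et and upd3, and of upd3 and upd2. Those of Socs36E, hop and upd1 did not. At 120h the order was the same for the first 4 genes, and Socs36E and hop again did not overlap. At 72h et had the highest mean, 34.8 ± 36.5 CPM per kb (SD, n = 2), which overlapped that of dome. Ranked among all 13676 genes by level per kb at 96h, Stat92E was at percentile 85.3, dome at 81.9, hop at 60.5, upd1 at 52.6 and upd3 at 43.1. At 120h upd1 was at 41.7 and upd3 at 25.5.

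Across the 8 samples the log2 levels of the ligands upd1 and upd3 moved together (Pearson's r = 0.95), as did Stat92E and Socs36E (r = 0.95). The ligand upd1 was little related to hop (r = -0.03), and et was negative with dome, hop, Stat92E and Socs36E (-0.27 to -0.51). These are descriptions over samples that share depth, length trend and stage. In the grouping of temporal profiles that the authors deposited, upd1 and upd3 are in the same cluster of 282 genes, dome, Stat92E and Socs36E in another of 585, hop in a cluster of 935 and et in one of 656, and upd2 is in none.

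By the same measure over 9075 other genes, the profile most like upd1 was that of Ran, the GTPase of nuclear transport (r = 0.98), followed by slow (r = 0.98), which was also second for upd3 behind the formin gene form3 (both r = 0.99). The receptor gene dome was most like Spt5, a transcription elongation factor (r = 0.99), and Plap (r = 0.98). The kinase gene hop was most like wts, the Hippo pathway kinase gene, and the histone demethylase gene Kdm5 (r = 0.998 and 0.997), but 811 genes, 8.94%, had an r above 0.95 with hop. That number was 24 for upd1, 47 for upd3, 66 for dome, 154 for Stat92E (led by mi and Synd), 296 for Socs36E (led by Orp8 and CG9132) and 10 for et (led by CG15695 and CG18747). The profile of hop was the least particular of the members by this count.

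Among 11 regulators of the pathway found in the table, 6 were called higher and none lower from 72h to 96h, against 20.3% higher and 22.5% lower over all genes, and with a median log2 fold change of 0.56 against -0.01. Socs16D, which encodes another SOCS protein, rose by 1.83 (SE 0.38, edgeR adjusted p = 0.0212), CycD, the cyclin D gene, by 1.02 (adjusted p = 0.0178), BRWD3, a bromodomain and WD repeat gene, by 1.26 (adjusted p = 0.023), and the nucleosome remodelling gene E(bx) by 1.30 (adjusted p = 0.0287) on the log2 scale. Su(var)2-10, which encodes the PIAS inhibitor of STAT, rose by 0.87 (adjusted p = 0.0244), and Hrs, an endosomal sorting gene, by 0.49 (adjusted p = 0.0396). BRWD3 (0.27, adjusted p = 0.182), E(bx) (0.24, adjusted p = 0.21) and Hrs (0.33, adjusted p = 0.0522) lost their call with the length offset, and each of the 6 lost it without 96h B. With that offset 3 other regulators passed the threshold, all higher at 96h. They were Cdk4 (1.20, edgeR adjusted p = 0.0169), Stam (0.53, adjusted p = 0.0249) and ken (0.63, adjusted p = 0.0445). In the next interval only apt was called by edgeR without the offset, and it fell, where 14.3% of all genes were called. With the offset ken also passed the threshold, lower at 120h (-0.75, edgeR adjusted p = 0.0223). DESeq2 also passed ken (adjusted p = 0.0142), Socs16D (adjusted p = 0.0014) and Hrs (adjusted p = 0.0449). The edgeR log2 fold changes of Socs16D and Hrs were 0.41 and 0.30. The gene apt encodes a repressor of the pathway in border cells of the ovary. Its level was 52.5, 53.2 and 78.0 CPM at 72h, 73.8, 61.7 and 39.9 CPM at 96h, and 17.2, 8.61 and 16.4 CPM at 120h. The libraries of 120h lay below all others. The log2 fold change was -2.005 (SE 0.35, edgeR adjusted p = 0.0112), and the highest adjusted p with a library left out was 0.0493. Over both intervals, from 72h to 120h, 6 of the 11 were called higher and 1, apt, lower, against 23.6% and 29% over all genes. BRWD3 (0.12, edgeR adjusted p = 0.419) and E(bx) (0.33, adjusted p = 0.183) lost this call with the length offset. BRWD3, E(bx), Hrs and Su(var)2-10 each lost it without 120h A and without 120h C. With the offset Cdk4 (1.06, adjusted p = 0.00942), Stam (0.57, adjusted p = 0.018) and Socs44A (0.77, adjusted p = 0.0351) passed the threshold, all higher at 120h.

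Of 12 genes that act upstream of the ligands in the disc or respond to the pathway there, 8 were called higher and none lower from 72h to 96h, against 20.3% and 22.5% over all genes, with a median log2 fold change of 1.09. They were N, which encodes the Notch receptor (2.62), fng, its glycosyltransferase (1.07), mirr, a dorsal selector gene (1.06), fj, a Golgi kinase gene (1.18), the morphogen genes dpp (1.11) and hh (1.66), chinmo (2.39) and zfh2 (1.51), with edgeR adjusted p from 0.0132 to 0.0493. Each of the 8 lost its call without 96h B, and zfh2 lost it with the length offset. Diap1 passed the threshold with that offset (0.62, edgeR adjusted p = 0.0151). Between 96h and 120h hh (0.69), zfh2 (1.22) and the apoptosis inhibitor gene Diap1 (0.86) were called higher and fng (-0.66), dpp (-0.85) and chinmo (-3.49) lower, against 8.01% higher and 6.28% lower over all genes. All of these but chinmo lost their call in 3 or 4 of the 6 fits with a library left out, with highest adjusted p of 0.0598 for hh, 0.0771 for zfh2, 0.0807 for Diap1, 0.126 for fng and 0.0936 for dpp. With the length offset eyg also passed the threshold in this interval, higher at 120h (0.68, edgeR adjusted p = 0.0339), and DESeq2 gave eyg adjusted p = 0.00852. The gene chinmo encodes a BTB transcription factor known as a Stat92E target in eye growth. It was at 2.47, 3.05 and 3.76 CPM at 72h, 27.7, 17.0 and 6.99 CPM at 96h, and 1.73, 1.34 and 1.37 CPM at 120h. All 96h libraries lay above all others, and all 120h libraries below all others. From 96h to 120h chinmo fell by 3.49 on the log2 scale (SE 0.52, edgeR adjusted p = 0.00666), and the call held with any library left out, the highest adjusted p being 0.0381. As with upd1 and upd3, chinmo passed the filter only through the 96h libraries. Without a filter its log2 fold change was 2.39 from 72h to 96h (adjusted p = 0.0366) and -3.49 from 96h to 120h (adjusted p = 0.00392). Between 72h and 120h 6 of the 11 tested were called higher and none lower, against 23.6% and 29% over all genes. Ser lost this call with the length offset (0.51, edgeR adjusted p = 0.0522), without 120h A and without 120h C. Diap1 lost it without 72h C and without 120h C. With the offset fj (1.01, edgeR adjusted p = 0.00905), fng (0.97, adjusted p = 0.0115) and mirr (0.58, adjusted p = 0.0474) passed the threshold, all higher at 120h. The gene left out there by the filter was chinmo. Without a filter its log2 fold change from 72h to 120h was -1.165 (edgeR adjusted p = 0.0481), lower at 120h.

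The genes known as JAK/STAT targets of stress and immunity were a list of 11. Only TotA, vir-1, Tep1, Tep2 and Tep4 passed the filter, and TotB, TotC, TotF, TotM, TotX and TotZ were at 0 to 0.704 CPM. From 72h to 96h vir-1 was called lower (-0.98, edgeR adjusted p = 0.0458), a call lost with the length offset (-0.47, adjusted p = 0.185) and without 72h C, 96h A or 96h B. With that offset 3 others passed the threshold. They were Tep2 (-1.15, edgeR adjusted p = 0.00748) and Tep4 (-2.15, adjusted p = 0.0157), both lower, and TotA (2.12, adjusted p = 0.0465), higher. Between 96h and 120h none of the 5 was called by edgeR without the offset, with 2 at an unadjusted p under 0.05. With the offset Tep2 passed the threshold (-0.60, edgeR adjusted p = 0.0336), and for Tep4 DESeq2 gave adjusted p = 0.0259. Comparing 120h with 72h, vir-1 (-0.70), Tep2 (-1.08) and Tep4 (-2.26) were called lower, where 29% of all genes were. That of vir-1 was lost with the length offset (-0.13, adjusted p = 0.495), without 72h C and without 120h C, and that of Tep2 without 120h C. Tep1, a complement-like gene of blood cells and fat body, was at 6.07, 5.41 and 81.9 CPM at 72h, 0.836, 5.27 and 38.2 at 96h and 37.2, 7.62 and 32.5 at 120h, with its highest libraries at 72h, 96h and 120h the same as those of et. This also held for TotA and not for the others that passed the filter. Tep2 was highest at 96h in A (74.5 CPM) and Tep4 at 120h in C (209 CPM), while vir-1 was lowest at 72h in C (72.9 CPM).

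**Figure D5:**
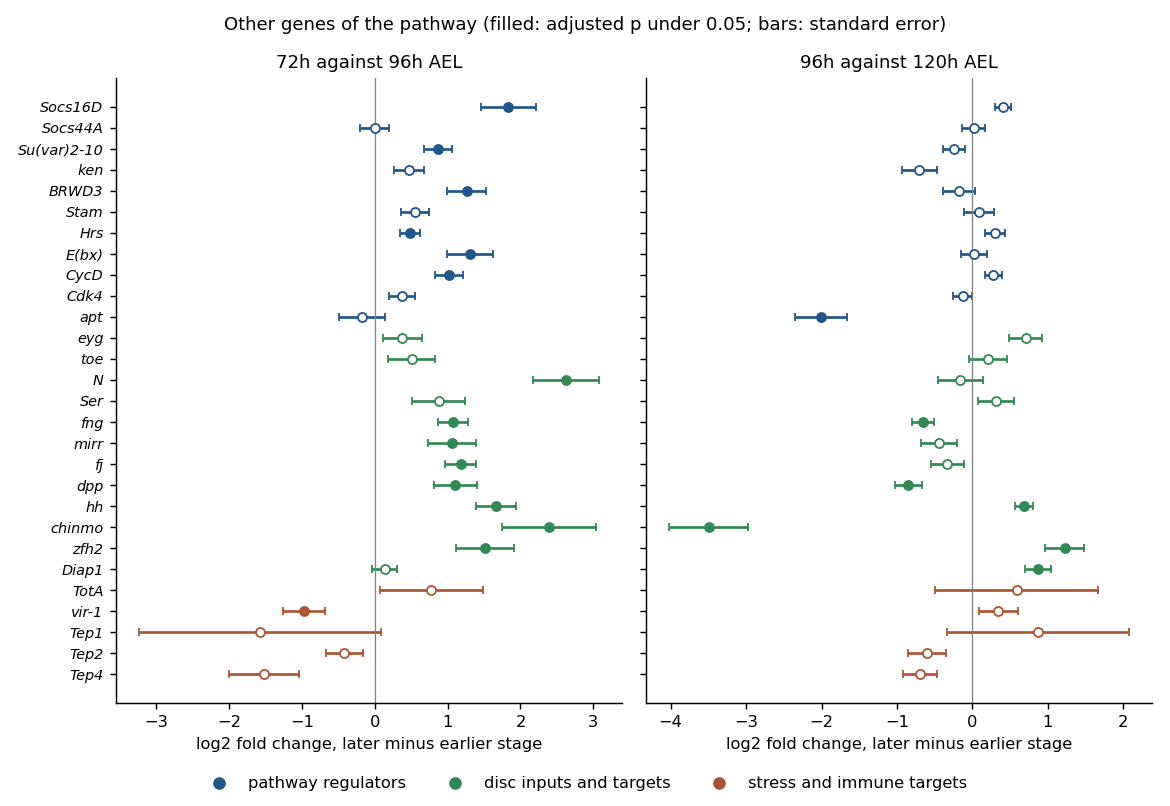
Log2 fold change of the other pathway genes that passed the filter, from 72h to 96h (left) and from 96h to 120h (right), with standard errors, filled where the edgeR adjusted p was under 0.05 and coloured by list. Most regulator and disc genes lie right of 0 on the left, where N is at 2.62 and chinmo at 2.39, and apt (-2.005) and chinmo (-3.49) lie farthest left on the right.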

How the data were processed

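The deposited table held whole-number counts, which the authors made from 50 bp single-end reads with Bowtie2 and SAMtools 0.1.19 on the longest coding sequence of each gene (FlyBase annotation). A second deposited file, a cluster number for 8836 genes in 13 temporal profiles (unit: other), was used as a label only. The 8 members, the lists and the tests were chosen with earlier results of these data known.

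Genes under a Jaccard filter (after HTSFilter, 100 thresholds from 1 to 200 normalised counts) were left out in each comparison. edgeR 4.0.16 (R 4.3.3, TMM factors, quasi-likelihood F test) was fitted to all genes of the 2 stages compared, with Benjamini-Hochberg adjustment over all tested genes and a threshold of 0.05, and was tested on simulated data. DESeq2 1.42.0, other scalings and filters, an offset for the trend with coding length and leaving out each library were alternatives. CPM are TMM-scaled, and means count 72h A and B as 1 sample. At 10 CPM counting error is 4.96 to 7.03%, and 3 counts are 0.0738 to 0.148 CPM. The labels do not say whether replicates are separate cultures, so p-values measure the spread between these samples. Named genes were the 8 members, list genes called with an absolute log2 fold change over 1 from one stage to the next, genes behind counts of 5 or fewer, and the 2 genes most correlated with each member. Cdk4, eyg, Hrs, ken, Ser, Socs44A, Stam, Su(var)2-10, Tep1 and the Tot genes were named after their values were seen. Gene names and positions are from BDGP6 (13405 genes named). Of the lists, 11 of 12 regulators, 12 of 14 disc genes and 11 of 11 stress genes were matched.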

Additional observations from a re-analysis of the deposited data

How the results depend on the processing

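Between 72h and 96h AEL 1 member was called; the count was 0 at an adjusted p under 0.01, 4 at under 0.1, 4 with library sizes in place of TMM, 4 with DESeq2, 4 with 72h A and B kept separate, 2 with all stages in 1 fit, 2 with the length offset, 2 with the replicate block, and 0 to 5 with a library left out. Between 96h and 120h 2 were called, 1 at under 0.01, 4 with the length offset and no filter (chosen after seeing the data), and 1 to 2 with a library left out. Between 72h and 120h 3 were called, 0 at under 0.01, 4 with no filter, 4 with filterByExpr, 4 with the replicate block, and 1 to 4 with a library left out. The count there was 2 with DESeq2 size factors, 2 with library sizes in place of TMM, 2 with all stages in 1 fit and 2 with the length offset. Signs turned only for changes that were not called in the comparison as reported. Hop between 96h and 120h was 0.0716 with library sizes and -0.14 to 0.14 with a library left out, and et there was 0.0664 with the replicate block and -0.77 to 1.75 with a library left out. Upd3 between 72h and 96h was -0.19 to 0.56 with a library left out. Dome between 72h and 120h was -0.37 with the length offset and -0.38 with that offset and no filter, and 0.55 (adjusted p = 0.0277) without 120h B. The cause of these shifts was not tested. Samples that share a letter did not deviate together in every pair (correlations of -0.43 to 0.18), and the letters were not taken as pairs. From 96h to 120h each sample correlated best with its own letter (0.096 to 0.149, against -0.18 to -0.014 for other letters), a hint from the data and not the design. Blocking on them gave 804 calls over all genes from 96h to 120h against 1160. Over all genes the calls were 661 of 3826 at under 0.01 from 72h to 96h, 511 from 96h to 120h and 2301 of 4791 from 72h to 120h, from 96h to 120h 1845 with DESeq2, 1836 with the length offset and 1966 with that offset and no filter, and with a library left out 641 to 4056, 560 to 1266 and 2477 to 5072 in the 3 comparisons (1598 without 96h A and 641 without 96h B, 572 without 96h B, 627 without 120h A and 560 without 120h C, and 2772 without 120h A and 2477 without 120h C). With 2 or 3 samples a stage, each gene named here as called from 72h to 96h lost its call without 96h B, and upd2 and upd3 rest on few counts at 120h.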
